A study of Mus musculus with 66 samples.

Results

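The genes described here are the inhibitors of the cyclin-dependent kinases (CDKs) and the retinoblastoma family of the mouse, measured by mRNA-Seq in C2C12 myoblasts. They are the 3 Cip/Kip genes (Cdkn1a, Cdkn1b and Cdkn1c), the 4 INK4 genes (Cdkn2a, Cdkn2b, Cdkn2c and Cdkn2d) and the 3 retinoblastoma family genes (Rb1, Rbl1 and Rbl2). They were chosen by gene symbol, and all 10 were present among the 22489 genes of the expression table. A mean of at least 1 FPKM over the 20 libraries, the level set for testing, was reached by 6 of the 10 genes (Cdkn1a, Cdkn1b, Cdkn2c, Rb1, Rbl1 and Rbl2) and by 10954 genes in all. FPKM scales the fragments of a gene by its exon length and by the mapped reads of its library. It is a level per length of transcript, so levels of different genes can be set side by side.

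C2C12 is a mouse myoblast line that fuses into myotubes when serum is withdrawn. The study compared 10 cultures of it, each with 1 library per state: unmodified cells (WT, which carry no GFP-tagged H3 gene) and 9 Tet-On C2C12 lines that carry an N-terminally GFP-tagged H3 gene under a doxycycline-inducible promoter. The histone was H3.1, H3.2 or H3t in 3 lines, called the H3.1/H3.2-type here, and H3.3, H3mm7, H3mm11, H3mm12, H3mm13 or H3mm16 in 6 lines, called the H3.3-type. The growth state was sampled below confluence in 20% fetal bovine serum. For the differentiated state, confluent dishes were switched to low serum (2%, from horse) and RNA was made after 48 h. The lines were made by transposon integration, grown in doxycycline and G418 and sorted for GFP, and WT differs from them in that whole history and not in the transgene alone. Lines stand in for replicates in every test below, and how far 1 line varies between cultures was not measured by mRNA-Seq. The study measured biological replicates by RT-PCR amplicon sequencing, for genes other than these CDK inhibitor and retinoblastoma family genes.

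CDK inhibitors bind CDKs and their cyclins and hold back the cell cycle. INK4 proteins act on the CDK4 and CDK6 kinases that work with D-type cyclins, whereas Cip/Kip proteins act more widely, including on CDK2. The targets of those kinases, pRB (Rb1), p107 (Rbl1) and p130 (Rbl2), bind E2F transcription factors when they carry little phosphate and keep genes of DNA synthesis down. In muscle, permanent exit from the cycle is a part of differentiation, and p21 (Cdkn1a) and pRB are the members best known for it.

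Differentiated cultures held more Cdkn1a and Rb1 mRNA than growing ones and less Rbl1 and Cdkn2c mRNA, in each of the 10 lines. Of the 6 members tested, 2 rose and 2 fell by at least 1 on the log2 scale at an adjusted p below 0.05 (limma, Benjamini-Hochberg adjustment over 10954 genes), where 17.3% of all genes tested passed in either direction, 8.87% higher and 8.41% lower. The median absolute change of all genes was 0.41 on the log2(FPKM + 1) scale, and their median signed change was 0.04. For the same 4 genes the growth and the differentiated libraries did not overlap, which held for 17.6% of all genes. Each of these 4 genes moved in 1 direction in 10 of 10 lines, as did 44% of all genes tested. In these bulk cultures, a change in the RNA of each cell and a change in the number of cells that hold the RNA cannot be told apart.

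**Figure D1:**
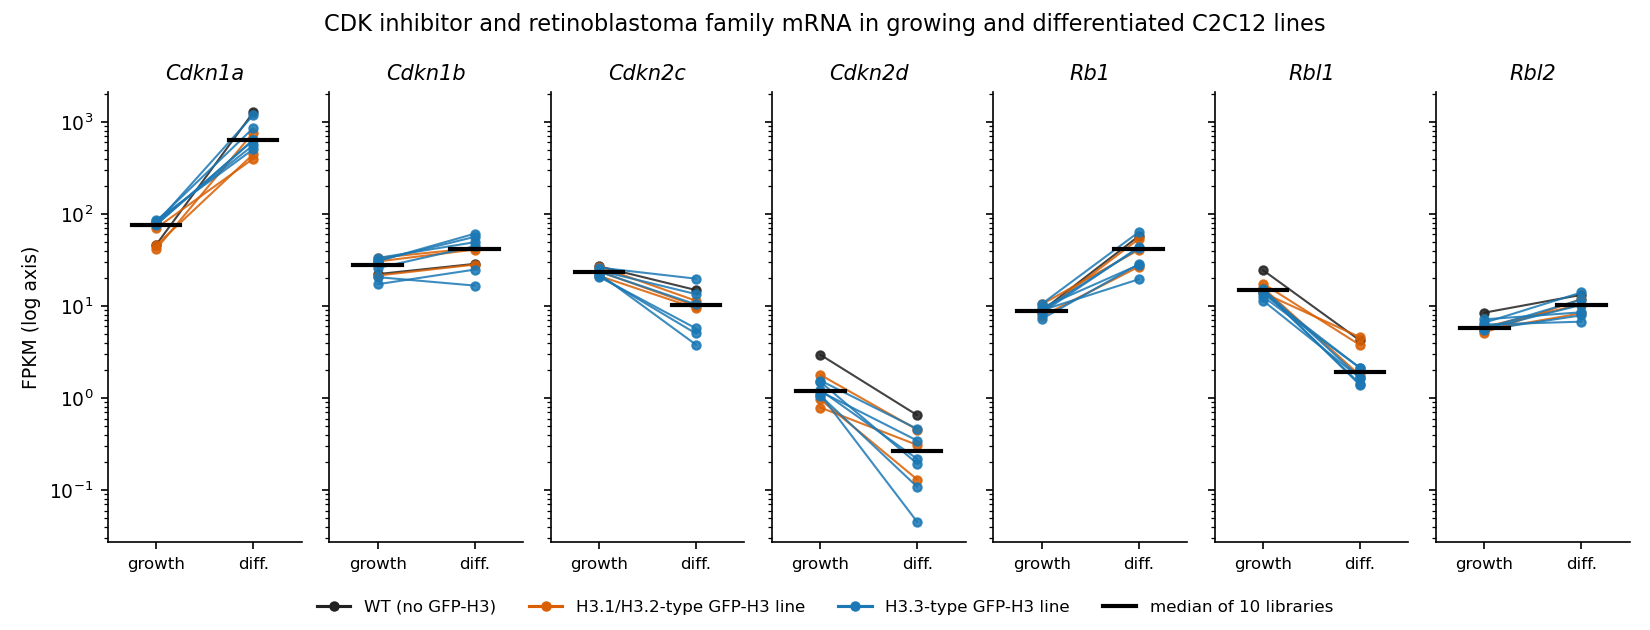
FPKM (log axis) of 7 members in growth and differentiated (diff.) libraries, with 1 line joining the 2 libraries of each of the 10 C2C12 lines, coloured by the H3 expressed, and a black bar at the median of 10. Cdkn1a and Rb1 are higher and Rbl1, Cdkn2c and Cdkn2d lower in differentiated cells in each line, while the 2 states overlap for Cdkn1b and Rbl2. Cdkn1c, Cdkn2a and Cdkn2b are left out because they are listed at 0 in 1 or more libraries.

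Short stretches of the promoters are given here because the members move in opposite directions and because E2F, CHR and E-box letters are the motifs usually named for cell cycle and muscle genes. RefSeq start sites on GRCm38.p6 gave 11 windows, from 250 bases before to 50 bases after the start, for 8 of the 10 members, and Cdkn1c and Rb1 had no entry. Each of the 11 windows matched the mm9 genome exactly and once. Both strands were searched for the E2F letters TTTCCCGC, TTTGGCGC, TTTCGCGC and TTTGCCGC, for the CHR letters TTTGAA and for the E-box letters CAGCTG. In the lines below, 30 bases are printed 5′ to 3′ on the strand of the gene, with the match in capitals.
Rbl1, E2F letters, chr2:157030270-157030299 (mm9, minus strand): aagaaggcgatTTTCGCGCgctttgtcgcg
Cdkn2a, E2F letters, chr4:88940604-88940633 (mm9, minus strand): ctctgggaagcTTTCCCGCgcgactgggga
Cdkn1a, E-box letters, chr17:29227944-29227973 (mm9, plus strand): tgatgatacccaactacCAGCTGtggggtg
Rbl2, CHR letters read on the other strand, chr8:93593743-93593772 (mm9, plus strand): ggtctttttctcTTCAAAcgagccttctga

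E2F letters were found in 2 of the 11 windows, that of Rbl1, where the match begins 18 bases before the start, and 1 of Cdkn2a, where it begins 99 bases before. Of all 32851 promoter windows of this length, 2.26% held them. CHR letters stood in the windows of Rbl2 and Cdkn2b, against 17.89% of all windows. E-box letters, which read alike on both strands, stood in 1 of the 2 windows of Cdkn1a and in that of Rbl1, against 16.3% of all windows. The E-box match of Cdkn1a lies downstream of the start and begins at base 38 counted from it. The E-box match of Rbl1 begins 183 bases before the start and does not overlap its E2F match. The pair of genes with E2F letters thus includes a gene that fell with differentiation (Rbl1) and a gene listed at 0 throughout (Cdkn2a). The pair with E-box letters includes a gene that rose (Cdkn1a) and the same Rbl1. These matches describe letters only and show neither binding nor its absence.

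Among the Cip/Kip genes, Cdkn1a (p21; chr17:29227924-29237667, plus strand, mm9) was the most abundant member in each of the 20 libraries. In growth cells it lay between 41.7 FPKM (H3.2) and 85.3 FPKM (H3mm11), with a median of 76.5 FPKM. After differentiation it lay between 398 FPKM (H3.1) and 1266 FPKM (WT), with a median of 634.6 FPKM. The lowest differentiated library was thus well above the highest growth library. Its log2(FPKM + 1) rose by 3.32 with an SE of 0.21 (n = 10 and 10; limma, adjusted p = 1.92e-11), and by 3.17 without WT. Within a line the differentiated level was 5.67 to 27.3 times the growth level, lowest in H3.1 and highest in WT, with a median of 9.07.

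Cdkn1b (p27; chr6:134870419-134875531, plus strand) moved little beside it. Growth libraries ran from 17.2 FPKM (H3.3) to 33.3 FPKM (H3.2), with a median of 28.2 FPKM, and differentiated libraries from 16.7 FPKM (H3mm7) to 61.0 FPKM (H3mm12), with a median of 41.8 FPKM. The ranges overlapped, and H3mm7 was the line of 10 in which the differentiated value was the lower. The difference in log2(FPKM + 1) was 0.48 with an SE of 0.20 (n = 10 and 10; limma, adjusted p = 0.0400), below the size set for a call, and its adjusted p ran from 0.00119 with the line as a replicate block to 0.0830 without H3mm11.

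Cdkn1c (p57; chr7:150644255-150646955, minus strand) was close to the floor of the table. Its growth values lay between 0 (H3.1 and H3t) and 0.421 FPKM (H3.3). In differentiated cells 8 of the 10 lines stayed at or below 0.290 FPKM, and H3.3 and WT stood apart at 2.00 and 2.29 FPKM. With no filter on low values, the difference was 0.33 on the log2(FPKM + 1) scale with an SE of 0.20 (n = 10 and 10; limma, adjusted p = 0.197), and 7 lines were higher and 2 lower.

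As a share of the summed FPKM of the 3 Cip/Kip genes, Cdkn1a made up 71.2% ± 8.3 (SD, n = 10) in growth cells and 94.4% ± 2.2 (SD, n = 10) in differentiated cells. Cdkn1b held 28.7% ± 8.3 (SD, n = 10) before and 5.58% ± 2.2 (SD, n = 10) after. The summed level went from 95.4 ± 17.0 FPKM to 764 ± 302 FPKM (SD, n = 10 each). These shares follow from the levels above and were not tested.

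Of the INK4 genes, 2 were hardly or not found. Cdkn2a, whose locus encodes p16 and p19Arf (chr4:88920377-88940557, minus strand), was listed at 0 in all 20 libraries. Its neighbour Cdkn2b (p15; chr4:88952198-88956941, minus strand) was listed at 0.0261 FPKM in the H3.2 growth library and at 0 in the other libraries. With FPKM alone, the number of reads behind a 0 is unknown, so no upper limit can be set on either gene.

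Cdkn2c (p18; chr4:109333481-109339794, minus strand) was the main INK4 transcript and fell. Growth libraries lay close together, from 20.8 FPKM (H3mm11) to 27.0 FPKM (WT), with a median of 23.7 FPKM. Differentiated libraries spread from 3.81 FPKM (H3mm7) to 19.8 FPKM (H3mm12), with a median of 10.2 FPKM, so the highest of them lay just under the lowest growth library. The log2(FPKM + 1) value fell by 1.24 with an SE of 0.20 (n = 10 and 10; limma, adjusted p = 1.99e-05), and by 1.29 without WT. Per line the growth level was 1.32 times (H3mm12) to 5.89 times (H3mm7) the differentiated level.

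Cdkn2d (p19; chr9:21092907-21095653, minus strand) was low in both states and did not reach the mean set for testing. It lay between 0.790 FPKM (H3t) and 2.96 FPKM (WT) in growth cells, with a median of 1.20 FPKM. Differentiated values lay between 0.0452 FPKM (H3mm11) and 0.652 FPKM (WT), with a median of 0.264 FPKM. The 2 states did not overlap and the value was lower in 10 of 10 differentiated lines. With no filter on low values, the difference was -0.88 on the log2(FPKM + 1) scale with an SE of 0.12 (n = 10 and 10; limma, adjusted p = 5.19e-06), a scale that understates changes at such levels. Together the INK4 genes summed to 25.2 ± 2.7 FPKM in growth cells and 10.7 ± 5.0 FPKM after differentiation (SD, n = 10 each), with Cdkn2c at 94.5% ± 1.8 and 97.0% ± 2.0 of the sum (SD, n = 10 each).

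The retinoblastoma family changed its make-up. Rbl1 (p107; chr2:156971629-157030270, minus strand), whose promoter stretch with E2F letters is printed above, was the leading member in growth cells and the least abundant after differentiation. Its growth values ran from 11.4 FPKM (H3.3) to 24.5 FPKM (WT), with a median of 14.8 FPKM. In differentiated cells they ran from 1.39 FPKM (H3mm13) to 4.59 FPKM (H3.1), with a median of 1.94 FPKM. No differentiated library reached the lowest growth library, and the growth level was 3.04 to 10.8 times the differentiated level within a line. The log2(FPKM + 1) value fell by 2.29 with an SE of 0.17 (n = 10 and 10; limma, adjusted p = 1.57e-10), and by 2.29 without WT.

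Rb1 (pRB; chr14:73583480-73725629, minus strand) moved the other way. Growth libraries lay within 7.22 FPKM (H3.3) to 10.5 FPKM (H3mm12), with a median of 8.92 FPKM. Differentiated libraries ran from 19.5 FPKM (H3mm7) to 63.4 FPKM (H3mm12), with a median of 41.5 FPKM. The lowest differentiated library again lay above the highest growth library. Its log2(FPKM + 1) rose by 1.98 with an SE of 0.17 (n = 10 and 10; limma, adjusted p = 2.19e-09), by 1.91 without WT, and within a line by 2.17 to 6.46 times in FPKM. The annotated span of Rb1 overlaps 4 other genes, Rcbtb2, Gm17233, Mir687 and Lpar6, and whether reads were counted by strand is not given in the sources used here.

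Rbl2 (p130; chr8:93593956-93647743, plus strand) lay between these. It held 5.15 FPKM (H3.1) to 8.47 FPKM (WT) in growth cells, with a median of 5.83 FPKM, and 6.76 FPKM (H3mm7) to 14.0 FPKM (H3mm12) after differentiation, with a median of 10.3 FPKM. All 10 lines were higher when differentiated, but the states overlapped. The difference of 0.63 on the log2(FPKM + 1) scale, with an SE of 0.12 (n = 10 and 10; limma, adjusted p = 7.63e-05), passed the test and stayed below the size set for a call. Of all genes, 58.6% had an adjusted p below 0.05 in this comparison whatever their size. The gene overlaps Aktip on the other strand, and Rbl1 overlaps the pseudogene Gm14277.

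Set against each other, Rbl1 made up 50.2% ± 4.2 of the summed FPKM of the family in growth cells and 4.98% ± 2.7 after differentiation (SD, n = 10 each). Rb1 went from 29.5% ± 3.4 to 74.8% ± 6.1 (SD, n = 10 each). The share of Rbl2 was 20.3% ± 1.9 before and 20.2% ± 3.9 after (SD, n = 10 each), while its level and the family's summed level of 30.6 ± 4.8 FPKM before and 53.1 ± 16.5 FPKM after (SD, n = 10 each) were both higher after differentiation. The order of the shares, Rbl1 over Rb1 over Rbl2 in growth cells and Rb1 over Rbl2 over Rbl1 in differentiated cells, was the same in each of the 10 lines.

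**Figure D2:**
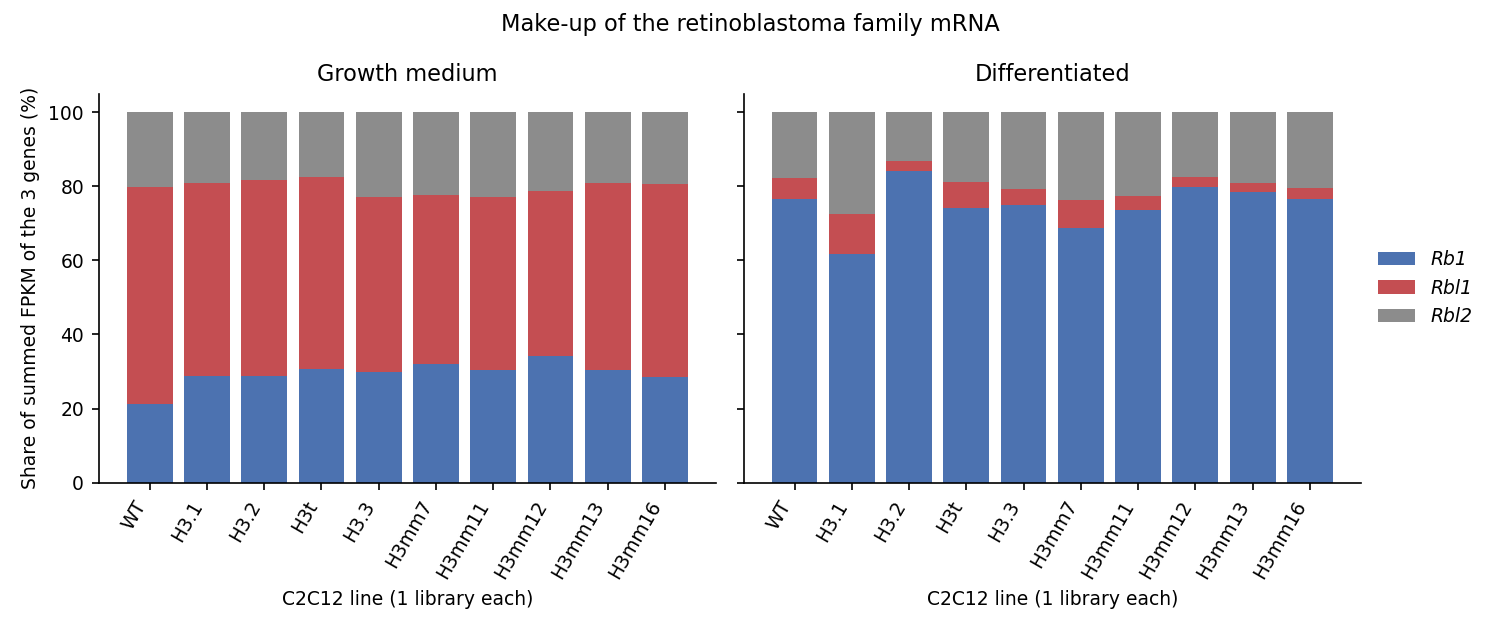
Share (%) of Rb1, Rbl1 and Rbl2 in the summed FPKM of the 3 genes, with 1 bar per C2C12 line and 1 panel per state. Rbl1 takes 44.6% to 58.6% of each growth bar and 2.57% to 10.6% of each differentiated bar, and Rb1 takes 61.7% to 84.1% of the latter.

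Across all 10 members, the order by median level in growth cells was Cdkn1a, Cdkn1b, Cdkn2c, Rbl1, Rb1, Rbl2, Cdkn2d, Cdkn1c, and then Cdkn2a and Cdkn2b at 0. Cdkn1b and Cdkn2c were not separated, since Cdkn1b was the higher in 6 of 10 libraries. In differentiated cells the order was Cdkn1a, Cdkn1b, Rb1, Rbl2, Cdkn2c, Rbl1, Cdkn2d and Cdkn1c. Here the neighbours Cdkn1b and Rb1, Rbl2 and Cdkn2c, and Cdkn2d and Cdkn1c each exchanged places in 5 of 10 libraries.

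**Figure D3:**
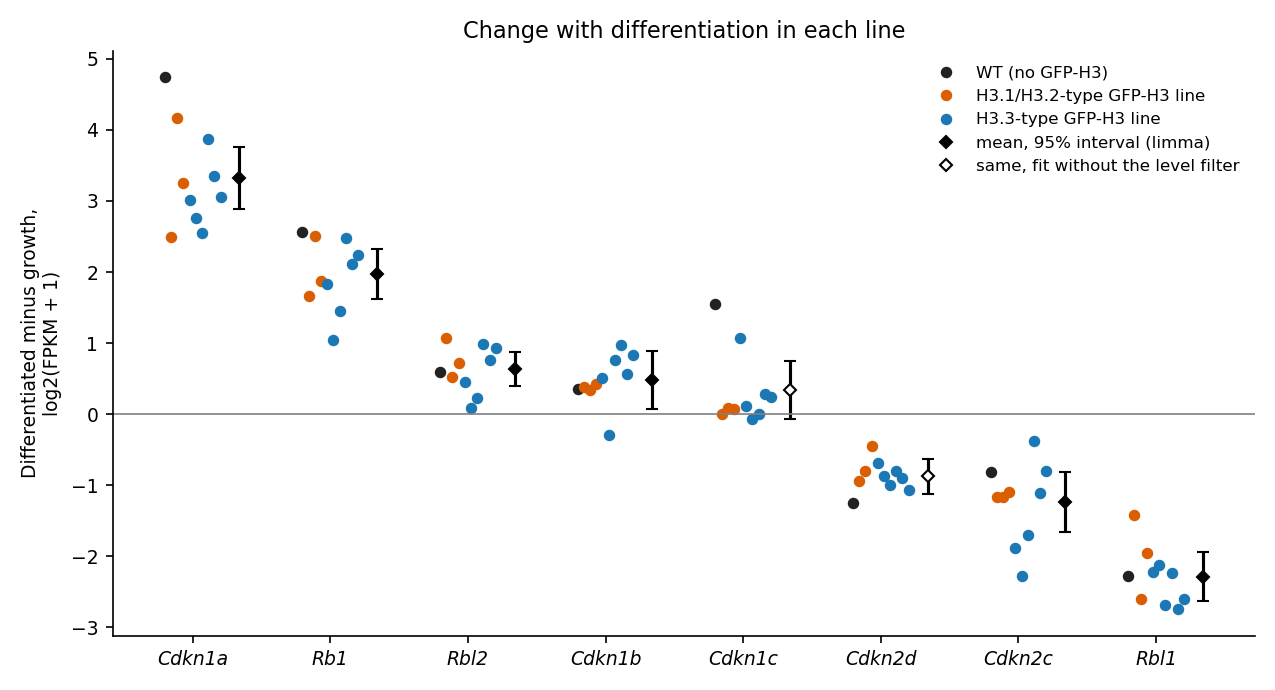
Differentiated minus growth log2(FPKM + 1) of 8 members in each of the 10 lines (points, coloured by the H3 expressed), with the mean and its 95% interval from limma (diamonds, open where the fit used no filter on low values). The lines' values for Cdkn1a and Rb1 all lie above 1 and those for Rbl1 all below -1, whereas Cdkn2c ranges from -2.28 in H3mm7 to -0.38 in H3mm12.

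The partners and targets of these proteins were followed in lists of known genes. Of 12 cyclins, CDKs and the activating phosphatase gene Cdc25a, 7 fell, 1 rose and 4 were not called, with a median change of -2.30 on the log2(FPKM + 1) scale. The largest changes were those of Ccnb1 (cyclin B1; -4.38, SE 0.31), Cdk1 (the mitotic CDK; -3.99, SE 0.29) and Ccna2 (cyclin A2; -3.92, SE 0.31), each lower in 10 of 10 lines. The exception that rose was Ccnd3, a D-type cyclin, by 1.10 with an SE of 0.21, in 9 of 10 lines. Cdk4 and Cdk6, the kinases that INK4 proteins bind, were at -0.74 (SE 0.16) and -0.98 (SE 0.17) and higher in 0 of 10 lines. They passed the test (limma, adjusted p = 5.22e-04 and 3.67e-05) but stayed below the size set for a call.

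Of 13 E2F target genes of DNA synthesis, 13 fell, from -1.80 (Pcna, the sliding clamp) to -4.49 (Tk1, thymidine kinase), with a median of -2.95. Mcm5 and Mcm3, parts of the replicative helicase, changed by -4.39 (SE 0.34) and -3.81 (SE 0.24). Among the 10 E2F and DP factors, 4 fell, 1 rose and 5 were not called. E2f7 and E2f8, which repress transcription, fell by 3.28 (SE 0.18) and 1.65 (SE 0.26), and E2f1, an activator, fell by 1.55 (SE 0.14). The gene of the group that rose was E2f2, by 1.27 with an SE of 0.22. E2f4 and E2f5, the usual partners of p107 and p130, were not called, at 0.19 (SE 0.10) and -0.38 (SE 0.08). Of these, E2f5 was higher in 0 of 10 lines and missed the call by size only (limma, adjusted p = 2.59e-04). The same held for E2f3, at -0.71 (SE 0.08) and higher in 0 of 10 lines (limma, adjusted p = 3.26e-07).

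The MuvB core joins p130 or p107 in the DREAM complex and Mybl2 or Foxm1 in activating complexes. Of these 7 genes, 4 fell, namely Mybl2 (-3.72, SE 0.19), Foxm1 (-3.51, SE 0.20), Lin9 (-1.76, SE 0.16) and Lin54 (-1.14, SE 0.10), and 3 were not called. Of 8 parts of ubiquitin ligases that act on cell cycle proteins, 3 fell and 5 were not called. The 3 were Dtl, the substrate receptor for p21 (-3.03, SE 0.21), and Cks1b and Skp2, which recognise p27 (-2.45, SE 0.25 and -2.16, SE 0.16).

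Of p53 and 9 of its target genes other than Cdkn1a, 4 rose and 6 were not called. Gadd45a rose by 4.01 (SE 0.34), Btg2 by 1.70 (SE 0.19) and Sesn2 by 1.47 (SE 0.28), each in 10 of 10 lines. Trp53 itself was at -0.65 (SE 0.17) and lower in 8 of 10 lines, and Mdm2, a p53 target, was at 0.14 (SE 0.12), neither of them called. Trp53 missed the call by size only (limma, adjusted p = 0.00293). All adjusted p of the called genes named in these lists were at most 1.41e-04 (limma, Benjamini-Hochberg), that of Sesn2.

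Markers of cell state moved with these results. Of 5 myotube markers, 5 rose, with a median change of 6.55, and their summed level went from 3.40 to 136 FPKM over the growth libraries to 1944 to 9825 FPKM over the differentiated ones. Of 3 myoblast markers, Des rose by 1.40 (SE 0.21), and Myod1 and Myf5 were not called. Markers of other cells varied in level. The adipocyte genes Adipoq and Plin1 did not exceed 0.110 FPKM in any library, the osteoblast genes Sp7 and Ibsp did not exceed 0.272 FPKM, and the satellite cell genes Pax7 and Pax3 did not exceed 0.982 FPKM. Pparg of the adipocyte list was at 6.77 to 29.8 FPKM over all libraries and at -0.72 (SE 0.15). Runx2 of the osteoblast list was at 2.70 to 14.5 FPKM and fell by 1.20 (SE 0.12). Of the remaining markers, the highest library held 8.51 FPKM of Cd34 (satellite cell list, at least 0.590 FPKM in each library), 4.96 FPKM of Fabp4 and 1.92 FPKM of Cebpa (adipocyte list), and 2.37 FPKM of Bglap and 1.95 FPKM of Alpl (osteoblast list). Runx2 and Cd34 thus reached levels like those of Rbl2. Pparg lay above Rbl2 in growth cells, at 14.4 to 29.8 FPKM against 5.15 to 8.47 FPKM. Summed over its 5 genes, the adipocyte list lay at 15.3 to 35.0 FPKM in growth and 9.06 to 19.2 FPKM in differentiated libraries, and the osteoblast list at 8.31 to 14.8 and 2.70 to 7.56 FPKM. The 3 satellite cell genes summed to 0.809 to 8.39 and 2.31 to 8.66 FPKM. The part of any of these markers in the members' changes was not tested.

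The 3 genes closest in profile to each tested member other than Cdkn1b were found by the root mean square difference of centred log2(FPKM + 1) values over the 20 libraries, among 10948 other genes. Libraries of 1 line share their history, and the 2 states dominate such a profile. For Cdkn1a these were Erbb3 (0.33), Klhl40 (0.36) and Rap1gap2 (0.39), against a median of 1.75 over all genes. For Rb1 they were Mef2a (0.16), Rnf11 (0.21) and Dtx4 (0.23), against 1.11. Rbl1 lay nearest to Mms22l (0.14), Mastl (0.15) and Topbp1 (0.18), against 1.26. Rbl2 lay nearest to Ttc3 (0.13), Cdadc1 (0.15) and Ctnna1 (0.15), against 0.55. The nearest genes to Cdkn2c were Ccsap (0.27), Ptrf (0.30) and Epb4.1l3 (0.31), against 0.86.

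The second question of the design was whether the H3 variant expressed goes with the level of a gene in either state. No member was called between the 6 H3.3-type and the 3 H3.1/H3.2-type lines in growth cells, where 0.21% of all genes were, or in differentiated cells, where 0.749% were. No member was called for a difference between types in the change with differentiation, and neither was any other gene (0%), although 1002 genes, 9.15%, had an unadjusted p below 0.05 there (limma). Unadjusted p below 0.05 was met by 9.39% of all genes in growth and 20.1% in differentiated cells.

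The member with the smallest p was Rbl1 in differentiated cells. The H3.1/H3.2-type lines held 4.59 FPKM (H3.1), 3.77 FPKM (H3t) and 1.76 FPKM (H3.2). The 6 H3.3-type lines ran from 1.39 FPKM to 2.13 FPKM, so that H3.1 and H3t lay above all of them and H3.2 lay among them. The difference in log2(FPKM + 1), H3.3-type minus H3.1/H3.2-type, was -0.63 with a 95% interval of -0.99 to -0.26 (n = 6 and 3; limma, adjusted p = 0.0638). It was -0.93 without H3.2 (adjusted p = 0.00596, still below the size set for a call) and -0.42 without H3.1 (adjusted p = 0.264). WT, which has no type, held 4.23 FPKM. In growth cells the Rbl1 difference between types was -0.18, with an interval of -0.55 to 0.19. The difference between types in its change with differentiation was -0.45, with an interval of -0.97 to 0.07 (limma, adjusted p = 0.622). This last difference was -0.16 without H3.1 and -0.75 without H3.2.

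For Cdkn1a in growth cells, the H3.1/H3.2-type lines held 70.3 FPKM (H3.1), 41.7 FPKM (H3.2) and 45.7 FPKM (H3t), and the 6 H3.3-type lines 76.1 to 85.3 FPKM, with no overlap, as was the case for 9.94% of all genes tested. WT was at 46.4 FPKM. The difference was 0.64 on the log2(FPKM + 1) scale, with a 95% interval of 0.13 to 1.16 (n = 6 and 3; limma, adjusted p = 0.389). In differentiated cells it was 0.44, with an interval of -0.08 to 0.95 (limma, adjusted p = 0.328), and the types overlapped. That value was 0.26 without H3.1, 0.29 without H3mm12, 0.73 without H3.2 (limma, adjusted p = 0.0953) and 0.15 after quantile normalization. For the other 4 tested members, differences between types lay between -0.27 and 0.13 in either state, and their intervals reached from -0.95 to 0.76, and a miss of the threshold does not show that the types were alike.

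**Figure D4:**
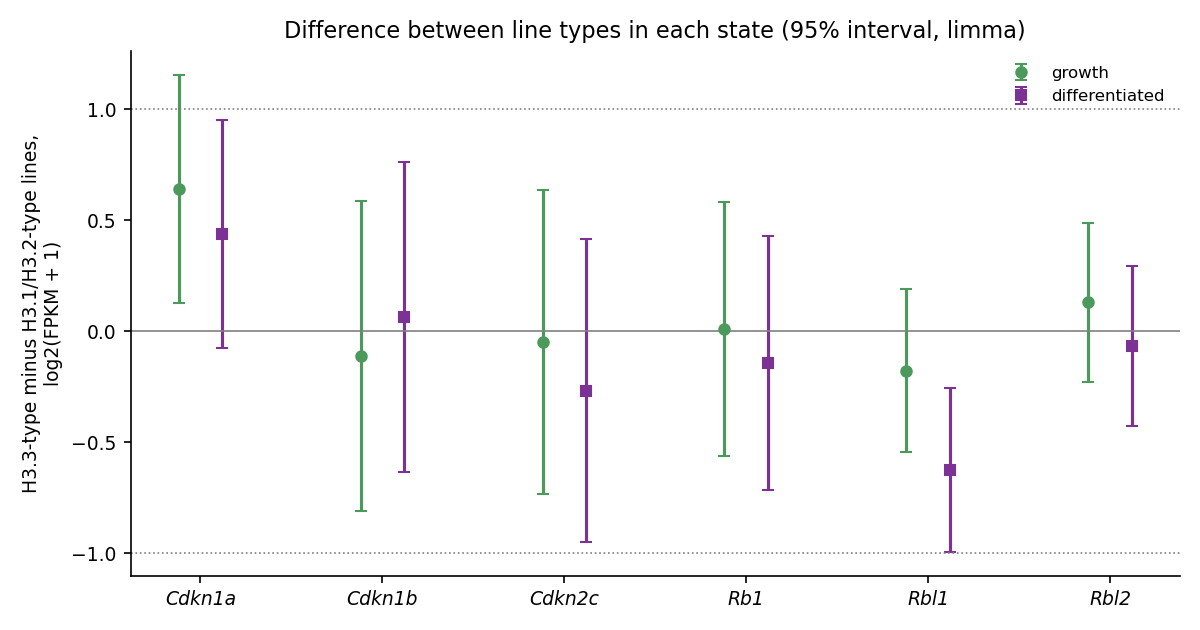
H3.3-type minus H3.1/H3.2-type difference in log2(FPKM + 1) for the 6 tested members in growth (circles) and differentiated (squares) cells, with 95% intervals from limma over 6 and 3 lines and dotted lines at the size set for a call. Only the intervals of Cdkn1a in growth and Rbl1 in differentiated cells leave out 0, and neither difference passed the adjusted test.

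Single lines stood at the ends of the range for several members at once after differentiation. H3mm12 was the highest of the 9 GFP-H3 lines for 5 of the 6 tested members, Rbl1 being the exception, while it was the highest for 16.5% of all genes. H3mm7 was the lowest for 4 of 6 (Cdkn1b, Cdkn2c, Rb1 and Rbl2), against 19.2% of all genes. The members share a library in these counts and are not independent. In H3mm12 the differentiated levels were 1180.1 FPKM for Cdkn1a, 61.0 FPKM for Cdkn1b, 19.8 FPKM for Cdkn2c and 63.4 FPKM for Rb1. In H3mm7 they were 557 FPKM, 16.7 FPKM, 3.81 FPKM and 19.5 FPKM, in the same order. The mean FPKM of all genes was the highest of all libraries in differentiated H3mm7, at 39.8, followed by differentiated H3mm12 at 34.8. The median of the tested genes was 12.8 FPKM in differentiated H3mm7 and 13.2 FPKM in differentiated H3mm12. The part of library scale in the values of these lines was not tested.

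Myog, the myogenic factor that marks entry into the myotube state, was highest in differentiated H3mm12, at 1151 FPKM, followed by WT at 1023 FPKM. The 3 lowest lines for Myog were H3t, H3.1 and H3mm11, at 329, 333 and 347 FPKM, and the 3 lowest for Cdkn1a were H3.1, H3t and H3mm11, at 398, 445 and 504 FPKM. H3mm7 held 496 FPKM of Myog. The other myotube markers were lowest in different lines, Myh3 in H3mm7 (54.9 FPKM), Mef2c and Acta1 in H3mm11 (0.228 and 1432 FPKM) and Ckm in H3t (94.9 FPKM). The part of the extent of differentiation in these differences between lines was not tested.

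The study set the H3.3, H3mm7 and H3mm11 lines apart as a group by their differentiated profiles in these same libraries, so their values are given as a description. Cdkn2c was at 5.03, 3.81 and 5.72 FPKM in them and between 9.45 and 19.8 FPKM in the other 6 GFP-H3 lines, without overlap. Of all genes, 8.84% were lower without overlap in the 3 lines and 19.1% were separate in either direction. In growth cells Cdkn2c lay at 20.8 to 22.4 FPKM in the 3 lines and at 21.3 to 26.8 FPKM in the others, which overlapped. Rb1 was at 19.5 to 28.4 FPKM against 26.6 to 63.4 FPKM after differentiation and overlapped, as did the other members.

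**Figure D5:**
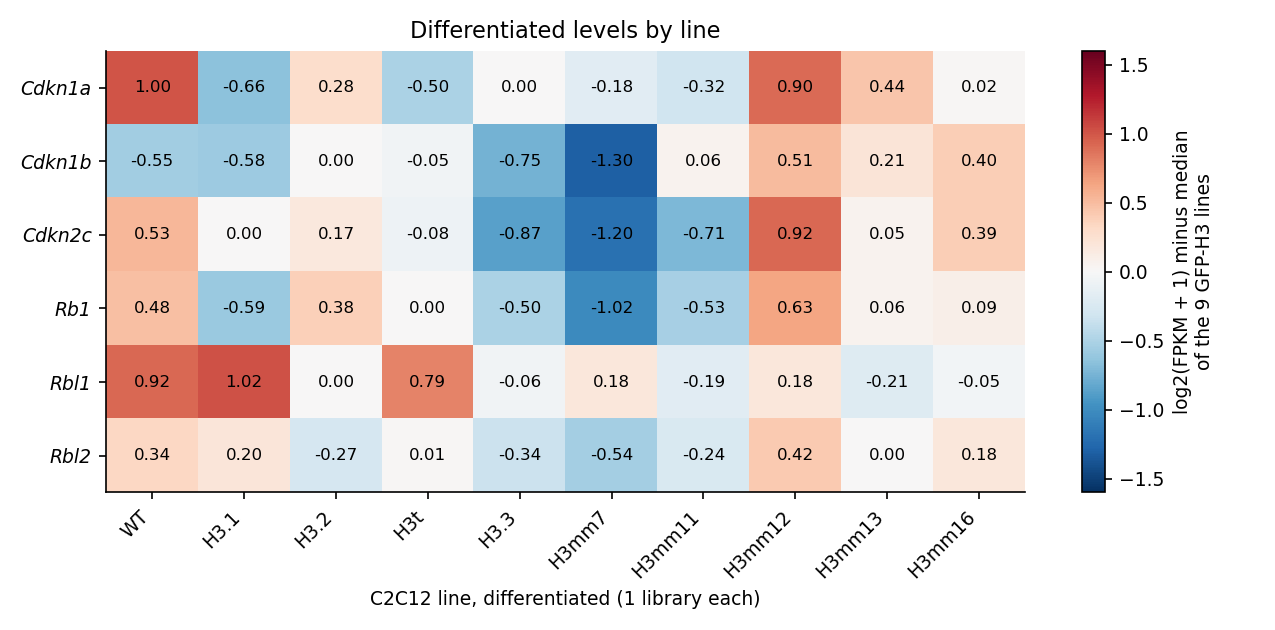
Differentiated log2(FPKM + 1) of the 6 tested members in each of the 10 lines, minus the median of the 9 GFP-H3 lines (colour and printed value). The H3mm12 column is above the median for each member and H3mm7 is below it for all but Rbl1, which is highest in H3.1, at 1.02.

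WT stood apart from the GFP-H3 lines as a library. Its mean FPKM over all genes was 18.2 in growth cells against 27.5 to 30.2 in the 9 lines, while the median of the tested genes was alike in all libraries, at 12.7 to 13.5 FPKM. The glycolytic gene Gapdh was listed at 0.361 FPKM (growth) and 0.263 FPKM (differentiated) for WT, whereas the GFP-H3 libraries held 783 to 2094 FPKM of it. Of all 22489 genes, 388 were at least 8 times lower in WT than in the lowest line. No member was among those, which says little about the members where so few genes were affected. In growth cells WT lay above the range of the lines for Cdkn2c, Cdkn2d, Rbl1 and Rbl2, for Cdkn2c only just (27.0 against 26.8 FPKM). In differentiated cells it lay above the range for Cdkn1a, Cdkn1c and Cdkn2d. It lay below the range for no member. The share of all genes for which WT lies outside the lines was not computed, so nothing is read from these members as a group. The 4 members called between states were called with and without WT.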

How the data were processed

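Of the series, the mRNA-Seq libraries of 10 C2C12 lines in 2 states were used (20 of 66 samples), grouped by their titles. The deposited table holds FPKM per gene, which the authors estimated with cuffdiff of Cufflinks 2.0.1 from reads mapped to mm9 with TopHat2 2.0.8. The methods name this mapping for the GFP-H3 lines, and the submitters' processing notes list the same tools for all 20 libraries. The depth of each library and the use of strand are not given in the sources used here, so no counting error can be attached to a value. Columns named H3mmT were read as the H3t line. The 3′-seq tables hold histone genes and were not used.

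Values were tested as log2(FPKM + 1), a scale that understates the change of low genes, with limma 3.58.1 (trend and robust settings, R 4.3.3) where the mean over 20 libraries was at least 1 FPKM. A call needed a change of at least 1 and a p below 0.05 after Benjamini-Hochberg adjustment. The script was tested on simulated data. The states were compared over 20 libraries, and line types over the 18 GFP-H3 libraries in 1 fit of 4 groups. Both libraries of a line come from the same cells and are paired by design. Their deviations from the state means correlated at 0.27 to 0.88 over genes, and the line as a replicate block was an alternative. Other alternatives were pseudocounts of 0.1 and 0.01 FPKM, a minimum mean of 5 FPKM or none, quantile and upper quartile scaling, limma without trend and robust settings, and each line left out.

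The members and gene lists were chosen with earlier results of these data known. From each list, up to 3 called genes with the largest change were to be named. Ccnd3, E2f2, Cdk4, Cdk6, E2f3, E2f4, E2f5, Lin54, Pcna, Trp53 and Mdm2 were added after their values were seen. So were the myotube markers by line and the markers of other cells. The genes nearest in profile to Cdkn1b are not reported here. Gene positions come from the mm9 GENCODE annotation.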

Additional observations from a re-analysis of the deposited data

Results flagged for a closer look

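Cdkn2b was listed at 0.0261 FPKM in the H3.2 growth library and at 0 in the other 9 growth libraries, so that this library stood away from the rest by the whole range of the group. It was the 1 group flagged of 17 groups of libraries checked for a sample far from the others, and chance flags about 1 group in 20. With the other 9 libraries at 0, any value above 0 would be flagged, so that rate does not apply to this group. The depth behind the value is unknown.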

How the results depend on the processing

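The 4 members called between states were called under each of 18 alternatives (other pseudocounts, filters, scalings and test settings, the replicate block and each line left out), and no member was called between line types or for their interaction under any of 16, 16 and 17 alternatives. With the line as a replicate block, 4 members were called between states and 0 for the interaction, as without it. No block could be made for the type comparisons within a state, since each line has 1 type. Over all genes, calls between states ran from 1429 to 2348 around 1893. Those between types depended on the setting, from 2 (without H3.1) to 70 (pseudocount 0.01) around 23 in growth cells and from 3 (without H3.1) to 295 (without H3.2) around 82 in differentiated cells, and those for the interaction ran from 0 to 4 around 0.

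Some uncalled type differences changed sign when 1 line was left out. In growth cells the values without 1 line ran from -0.077 to 0.12 for Rb1, from -0.30 to 0.011 for Cdkn1b and from -0.13 to 0.032 for Cdkn2c. In differentiated cells they ran from -0.12 to 0.29 for Cdkn1b, from -0.40 to 0.084 for Rb1 and from -0.19 to 0.042 for Rbl2. For the interaction they ran from -0.61 to 0.23 for Cdkn1a and from -0.33 to 0.095 for Rb1. No direction is read from these. The type comparisons rest on 3 H3.1/H3.2-type lines with 1 library per state each, and p-values measure the spread between lines only. FPKM without depth gives no floor for Cdkn1c, Cdkn2a, Cdkn2b and Cdkn2d.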
